A study of Mus musculus with 6 samples.

Results

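The genes described here link muscle atrophy to the FOXO transcription factors. They are the atrophy ligases Fbxo32 (atrogin-1) and Trim63 (MuRF1), the factors Foxo1 and Foxo3, the growth arrest genes Cdkn1a (p21) and Gadd45a, the secreted growth inhibitor Mstn (myostatin) and the translation repressor Eif4ebp1 (4E-BP1). The list was set by symbol, and every probe set (a group of short probes that read 1 transcript region) whose annotation named only that symbol was taken. This gave 15 of the 22626 probe sets tested, for 6 of the 8 genes. Trim63 and Mstn had no probe set under their symbols in the annotation used here, so no level is given for them.

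Skeletal muscle loses protein when breakdown outruns synthesis. When insulin and IGF1 signaling falls, the kinase AKT no longer holds FOXO factors in the cytoplasm, and they enter the nucleus and activate genes of the ubiquitin-proteasome and autophagy pathways, Fbxo32 and Trim63 among them. Myostatin acts on the same balance through activin receptors and SMAD factors, and 4E-BP1 blocks cap-dependent translation when mTORC1 is inactive. TFEB, the gene removed here, encodes a transcription factor of lysosome and autophagy genes that mTORC1 also keeps out of the nucleus.

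The arrays compared whole muscle RNA of TFEB KO mice with that of WT mice, 3 mice in each group and 1 Affymetrix array per mouse. All mice were of the C57BL/6 strain and 1 month old. The TFEB KO mice carried floxed Tcfeb alleles and the MLC1f-Cre transgene, whose promoter belongs to a myosin light chain of muscle fibers, so other cells of the tissue kept the gene by design. The sources used here do not say which muscle was taken, how the mice were fed, or whether the WT mice carried floxed alleles or Cre. The values are on the log2 scale, where a difference of 1 is a doubling, and levels are compared only within a probe set.

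Tfeb itself was measured first, as a check of the labels. Its probe set read 7.10, 7.23 and 7.04 in TFEB KO muscle, against 8.61, 8.55 and 8.96 in WT muscle. The KO arrays all lay below the WT arrays, and Tfeb fell by 1.58 on the log2 scale (SE 0.13, limma with Benjamini-Hochberg adjustment over all probe sets, adjusted p = 0.0079). The labelled tissue was also checked. All 10 markers of skeletal muscle fibers were measured and lay above the median brightness of all probe sets, with 0 called different and a median log2 fold change of 0.01. Other cells of the tissue differed between the groups. All 11 macrophage markers were higher in every KO array than in every WT array, and 5 of them passed the test. All 8 endothelial markers lay below 0, 6 of them with every KO array below every WT array, and 3 passed the test. All 4 measured Schwann cell markers lay below 0, and 1 passed. Of 8 fibroblast and tendon markers 3 lay above 0 and 5 below. The tendon genes Fmod, Tnmd and Comp fell. Pdgfra and Dcn lay above 0 (log2 fold changes 0.42 and 0.26) with every KO array above every WT array and did not pass. The collagen genes Col1a1 and Col3a1 had log2 fold changes of -0.82 and 0.33 with overlapping groups, and did not pass either. The number of calls changed with 1 array left out. It was then 0 to 2 for macrophages (2 without TFEB KO 1) and 0 to 2 for endothelial cells. For fibroblasts and tendon cells it was 1 to 3, and for Schwann cells 0 to 1. Over all probe sets the calls, 170 higher and 191 lower, likewise became 17 to 235 and 4 to 203. No macrophage marker overlapped between the groups, so each stayed higher in TFEB KO muscle whichever array was left out. The summed linear level of the macrophage markers was 8159.8, 5118 and 4909 in TFEB KO 1, 2 and 3, against 1874 to 3389 in the WT arrays. That of 4 measured adipocyte markers was 5173, 1326 and 1281 in TFEB KO 1, 2 and 3, against 908 to 1808 in the WT arrays, with 0 markers called. TFEB KO 1 thus carried the most signal of both kinds. The part of these cells in the results below was not tested, and in bulk tissue fewer cells of a type and less RNA per cell cannot be told apart.

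None of the 15 probe sets passed the test (adjusted p under 0.05), in a comparison that called 0.751% of all probe sets higher and 0.844% lower in TFEB KO muscle. Of the 15, 13 had a log2 fold change above 0, against 45.6% of all probe sets, and their median was 0.30, against -0.02 over all probe sets. At an unadjusted p under 0.05, 6 were higher and 0 lower, where 7.81% of all probe sets were higher and 9.4% lower. In 4 of the 15 every KO array lay above every WT array, against 9.77% of all probe sets, and in 0 every KO array lay below, against 13.3% of all probe sets. Probe sets of 1 gene read the same transcripts and are not independent. The members were also chosen with earlier results of these data known, so these shares describe the list and do not test it. With 3 arrays against 3, the two-sided exact permutation test of a single probe set cannot give a p below 0.1.

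**Figure D1:**
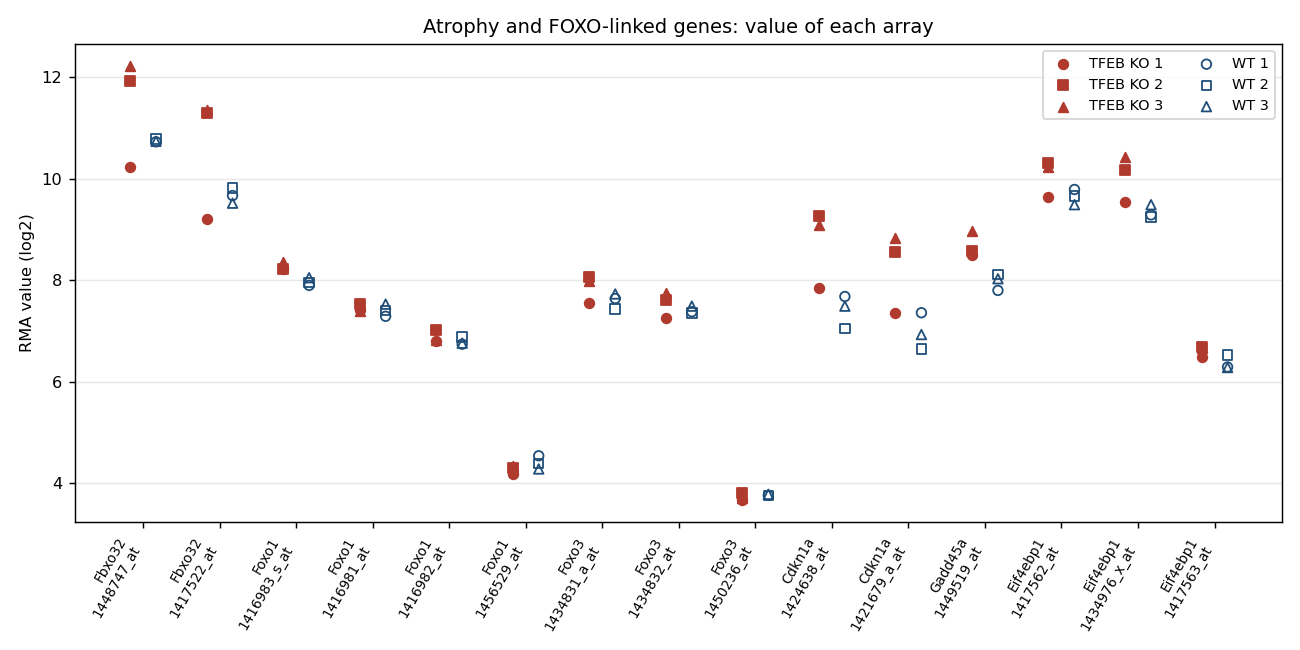
Log2 RMA value of each array for the 15 probe sets of the 6 measured genes. Filled red symbols are TFEB KO arrays and open blue symbols WT arrays, and the symbol shape gives the replicate number. TFEB KO 1 (red circles) lies apart from the other KO arrays for Fbxo32 and Cdkn1a.

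Cdkn1a, which encodes the cyclin-dependent kinase inhibitor p21 and is induced by p53 and by FOXO factors, had the largest fold change of the 15. Its probe set 1424638_at read 7.84, 9.26 and 9.08 in TFEB KO 1, 2 and 3, against 7.68, 7.05 and 7.49 in WT 1, 2 and 3. All KO arrays lay above all WT arrays, but TFEB KO 1 only just. The means were 8.72 ± 0.77 in TFEB KO muscle and 7.41 ± 0.33 in WT muscle (SD, n = 3 each), a log2 fold change of 1.31 (SE 0.34, 95% interval 0.53 to 2.10), or 2.49-fold on the linear scale, which did not pass the test (limma, adjusted p = 0.102, exact permutation p = 0.1). The other probe set, 1421679_a_at, read 7.35, 8.56 and 8.84 in TFEB KO muscle, against 7.36, 6.65 and 6.93 in WT muscle. Here TFEB KO 1 and WT 1 had almost the same value, and the log2 fold change of 1.27 (SE 0.36, adjusted p = 0.121) was close to that of the first probe set.

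Gadd45a encodes a stress sensor that binds p21 and PCNA and is induced in denervated and fasted muscle. It had the smallest p of the 15. Probe set 1449519_at read 8.49, 8.57 and 8.97 in TFEB KO muscle, against 7.80, 8.11 and 8.03 in WT muscle. The groups did not overlap, and here TFEB KO 1 lay beside TFEB KO 2. The means were 8.67 ± 0.26 in TFEB KO muscle and 7.98 ± 0.16 in WT muscle (SD, n = 3 each), and the log2 fold change of 0.69 (SE 0.15, 95% interval 0.36 to 1.03) missed the threshold (limma, adjusted p = 0.061). It passed with another quantile normalization (adjusted p = 0.0454), with trended and robust moderation (0.0439) and with array weights (0.0454).

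Because these 2 genes led the list, the bases before their start sites are shown. RefSeq (GRCm38.p6) gave 7 windows for 6 of the listed genes, Cdkn1a with 2 starts. Each window was read over the 250 bases before the start, and motifs were searched on both strands, with no overlap between matches of different motifs in these windows. Capitals mark matches to the decamer consensus of p53, a motif chosen after the sequences were seen. The Cdkn1a window lies at chr17:29090729-29090978 on the plus strand and the Gadd45a window at chr6:67037408-67037657 on the minus strand.
Cdkn1a: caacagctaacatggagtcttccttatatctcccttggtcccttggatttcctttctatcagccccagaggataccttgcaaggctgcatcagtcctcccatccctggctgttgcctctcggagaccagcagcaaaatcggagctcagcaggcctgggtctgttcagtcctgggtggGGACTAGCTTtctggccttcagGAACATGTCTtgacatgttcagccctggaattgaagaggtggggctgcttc
Gadd45a: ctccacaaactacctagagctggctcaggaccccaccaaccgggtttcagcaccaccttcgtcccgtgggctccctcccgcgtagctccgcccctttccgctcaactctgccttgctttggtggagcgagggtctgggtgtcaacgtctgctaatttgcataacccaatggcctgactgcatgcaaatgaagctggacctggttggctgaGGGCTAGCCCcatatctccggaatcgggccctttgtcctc
The Cdkn1a window held 2 matches and the Gadd45a window 1, while the window of the other Cdkn1a start, at chr17:29093519-29093768, held 0. Those of Mstn, Foxo1, Trim63 and Foxo3 also held 0. Of all 32851 windows, 7.13% held a match. The E-box core CACGTG, which TFEB binds within the CLEAR element, was in 0 of the 7 windows and in 6.02% of all windows. The FOXO core GTAAACA was in 1 of the 7, that of Trim63, and in 3.17% of all windows. A match is a description of the letters and not a bound site.

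Fbxo32, the F-box ubiquitin ligase used as a marker of atrophy, differed most among the KO mice. Probe set 1448747_at read 10.23, 11.93 and 12.23 in TFEB KO 1, 2 and 3, against 10.73, 10.78 and 10.74 in WT 1, 2 and 3. The WT arrays were nearly identical, TFEB KO 2 and 3 lay above all of them, and TFEB KO 1 lay below all of them. The range over the KO arrays was 2.00 on the log2 scale, at percentile 99.9 of the same range over all probe sets, whose median was 0.256, while the range over the WT arrays was 0.05. Probe set 1417522_at gave the same order, with 9.20, 11.30 and 11.35 in TFEB KO muscle, against 9.67, 9.82 and 9.52 in WT muscle. Both probe sets had wide intervals around their log2 fold changes, -0.29 to 1.71 around 0.71 (limma, adjusted p = 0.462) and -0.20 to 2.09 around 0.95 (adjusted p = 0.387). The exact permutation p was 0.4 for each.

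Eif4ebp1, whose product binds eIF4E and holds back translation, was read by 3 probe sets. The x_at probe set 1434976_x_at, a type whose probes may also match other transcripts, read 9.55, 10.18 and 10.44 in TFEB KO muscle, against 9.29, 9.25 and 9.49 in WT muscle. All KO arrays lay above the WT arrays, TFEB KO 1 by little, and the log2 fold change was 0.72 (SE 0.21, 95% interval 0.24 to 1.19, limma, adjusted p = 0.129). The brightest, 1417562_at, read 9.65, 10.32 and 10.23 in TFEB KO muscle, against 9.79, 9.66 and 9.49 in WT muscle. In it TFEB KO 1 fell among the WT arrays, and the log2 fold change was 0.42 (SE 0.18, adjusted p = 0.279). The third, 1417563_at, read 6.49, 6.69 and 6.66 in TFEB KO muscle, against 6.29, 6.53 and 6.28 in WT muscle, with a log2 fold change of 0.24 (adjusted p = 0.299).

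Of the FOXO factors themselves, Foxo1 was read by 4 probe sets, none of which passed the test. Its brightest probe set, 1416983_s_at, of a type that can read several transcripts, gave 8.23, 8.22 and 8.37 in TFEB KO muscle, against 7.90, 7.96 and 8.05 in WT muscle. The groups did not overlap, and the log2 fold change was 0.30 (SE 0.093, 95% interval 0.09 to 0.52, limma, adjusted p = 0.150). The other 3 Foxo1 probe sets overlapped between the groups. Probe set 1416981_at read 7.42, 7.54 and 7.40 in TFEB KO muscle, against 7.29, 7.40 and 7.53 in WT muscle (log2 fold change 0.05). Probe set 1416982_at read 6.80, 7.02 and 6.82 in TFEB KO muscle, against 6.74, 6.88 and 6.76 in WT muscle (0.09), and the dim 1456529_at read 4.18, 4.30 and 4.34 in TFEB KO muscle, against 4.54, 4.39 and 4.28 in WT muscle (-0.13). The probe sets of 1 gene thus did not give 1 size, and their adjusted p lay between 0.150 and 0.854.

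Foxo3, the factor that drives the atrophy ligases in fasted and denervated muscle, also had overlapping groups. Probe set 1434831_a_at read 7.56, 8.07 and 7.98 in TFEB KO muscle, against 7.64, 7.43 and 7.73 in WT muscle, with TFEB KO 1 among the WT arrays and a log2 fold change of 0.27 (SE 0.15, limma, adjusted p = 0.401). Probe set 1434832_at read 7.26, 7.61 and 7.74 in TFEB KO muscle, against 7.38, 7.36 and 7.49 in WT muscle (0.12, adjusted p = 0.688). In it TFEB KO 1 was the lowest of the 6 arrays. The dim 1450236_at read 3.66, 3.80 and 3.71 in TFEB KO muscle, against 3.76, 3.76 and 3.78 in WT muscle (-0.04, adjusted p = 0.848).

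**Figure D2:**
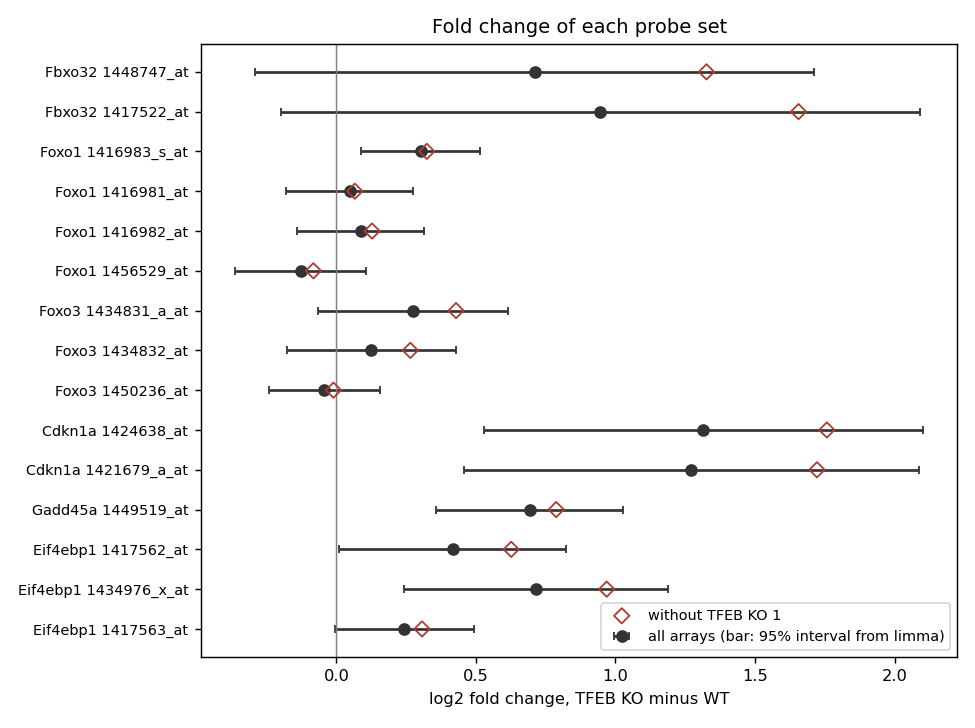
Log2 fold change (TFEB KO minus WT) of each of the 15 probe sets. Filled circles use all 6 arrays, with the 95% interval from limma as bars, and open red diamonds leave out TFEB KO 1. The diamonds lie farthest to the right of the circles for Fbxo32, at 1.33 and 1.66 against 0.71 and 0.95.

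TFEB KO 1 stood below the other KO arrays for most of these probe sets. It was the lowest KO array in 13 of the 15 probe sets, against 35.1% of all probe sets. It lay at or below the highest WT array in 11 of the 15, a share near the 72.8% of all probe sets, while TFEB KO 2 did so in 1 and TFEB KO 3 in 4, against 70.2% and 73.2% of all probe sets. Over all probe sets TFEB KO 1 correlated with TFEB KO 2 and 3 at 0.9929 and 0.9920, below the 0.9944 between those arrays, and pairs of a KO and a WT array reached 0.9934. Its array weight in limma was the lowest of the 6, at 0.65. Without TFEB KO 1, 5 of the 15 probe sets passed the test, where 1.04% of all probe sets were called higher. They were both probe sets of Fbxo32 (log2 fold changes 1.33 and 1.66, limma, adjusted p = 0.0071 and 0.0028), both of Cdkn1a (1.76 and 1.72, adjusted p = 0.010 and 0.015) and 1434976_x_at of Eif4ebp1 (0.97, adjusted p = 0.018). Gadd45a then had a log2 fold change of 0.79 (limma, adjusted p = 0.052). Because TFEB KO 1 was the lowest KO array in 13 of the 15, leaving it out raises their fold changes by construction. This held for only 35.1% of all probe sets, so the 1.04% is not a like comparison. These calls describe the place of TFEB KO 1 and do not test the members. Leaving out any other single array gave 0 calls among the 15. Those fits also called few of all 22626 probe sets, 17 to 53 higher and 4 to 42 lower. Without TFEB KO 1 the counts were 235 and 203. TFEB KO 1 was also the array with the highest macrophage and adipocyte marker sums given above, and their part in its values was not tested.

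**Figure D3:**
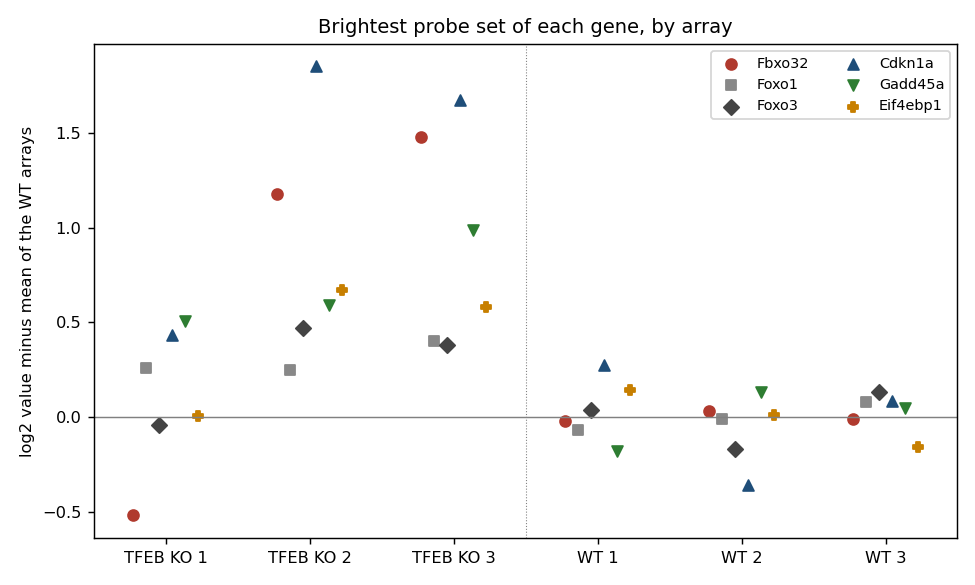
Brightest probe set of each of the 6 measured genes in each array, as log2 value minus the mean of the WT arrays. TFEB KO 2 and 3 lie above 0 for all 6 genes, while TFEB KO 1 lies below 0 for Fbxo32 and Foxo3 and near 0 for Eif4ebp1.

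To set the members in their pathways, 8 lists of other genes were read, each gene on its brightest probe set. Of 124 listed genes 106 were measured, and 1 was called higher and 0 lower, in a comparison that called 0.871% of all genes higher and 0.702% lower. In 13 of the 106 all KO arrays lay above all WT arrays, against 10.8% of all genes, and in 16 all lay below, against 12.9% of all genes. Over the 8 lists together these shares are near those of all genes, while single lists differ, as given below.

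The called gene was Myog, from the denervation-induced list. It encodes myogenin, the myogenic factor that switches on Fbxo32 and Trim63 in denervated muscle. Its values were 7.38, 6.99 and 7.13 in TFEB KO muscle, against 6.39, 6.38 and 6.12 in WT muscle. The groups did not overlap, and Myog rose by 0.87 on the log2 scale (SE 0.13, limma, adjusted p = 0.025). Its adjusted p stayed under 0.05 without TFEB KO 1 (0.034) and was 0.055 to 0.089 when any other single array was left out. Among its list, 9 of 11 genes were measured and their median log2 fold change was 0.01. Myog also belongs to the satellite cell and regenerating fiber markers, of which all 7 were above 0 and 2 were called higher (0 to 1 with 1 array left out), with summed levels of 819 to 897 in TFEB KO muscle, against 597 to 633 in WT muscle.

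Other FOXO target genes, 17 of 19 measured, had 0 called, 12 above 0 and a median log2 fold change of 0.26, against -0.01 over all genes. In 4 of the 17 every KO array lay above every WT array and in 3 below, against 10.8% and 12.9% of all genes. Relative to the WT means, the median of this list was 0.01, 0.28 and 0.41 in TFEB KO 1, 2 and 3. The gene with the smallest p was Irs2, an adaptor of insulin signaling, and it lay the other way. It read 6.63, 6.98 and 7.07 in TFEB KO muscle, against 7.41, 7.71 and 7.64 in WT muscle (log2 fold change -0.69, limma, adjusted p = 0.052). Its groups did not overlap. It passed in 7 other limma fits with all arrays (adjusted p = 0.034 to 0.045), but not with control probe sets kept (0.052). It passed in 0 of the 6 fits that left out an array. Sesn1, a p53- and FOXO-induced inhibitor of mTORC1 named after its values were seen, read 8.56, 9.13 and 9.13 in TFEB KO muscle, against 8.29, 8.21 and 8.43 in WT muscle (0.63, adjusted p = 0.097, and 0.018 without TFEB KO 1). Pdk4, the pyruvate dehydrogenase kinase, also named after its values were seen, read 12.69, 12.85 and 13.07 in TFEB KO muscle, against 11.80, 12.71 and 12.01 in WT muscle, where WT 2 came within the KO arrays (0.70, adjusted p = 0.161). Sesn3 and Sod2, named likewise, lay below 0 with no overlap (-0.17 and -0.19, limma, adjusted p = 0.342 and 0.379).

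The remaining lists had 0 genes called in either direction. Among the FOXO factors and their regulators, 11 of 13 were measured with a median of 0.01, and the smallest p was that of the deacetylase Sirt1 (0.37, adjusted p = 0.312). Other ubiquitin ligases and deubiquitinases of atrophy, 12 of 16 measured, had a median of -0.07, with the deubiquitinase Usp19 at -0.19 (limma, adjusted p = 0.378). In 5 of the 12 every KO array lay below every WT array and in 0 above, against 12.9% and 10.8% of all genes. The myostatin and activin pathway, 17 of 18 measured, had a median of 0.01. In it the type I receptor Tgfbr1 read 9.61, 9.76 and 9.86 in TFEB KO muscle, against 9.27, 9.23 and 9.36 in WT muscle, with no overlap (0.46, limma, adjusted p = 0.064).

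Among genes of translation control by mTORC1 and eIF4E, 12 of 16 measured, the median was -0.13. Eef2k, the kinase that slows elongation, stood at -0.27 (limma, adjusted p = 0.178). In 5 of the 12 every KO array lay below every WT array and in 1 above, against 12.9% and 10.8% of all genes. ATF4-driven genes, 12 of 13 measured, had a median of 0.21, with 9 above 0 and 3 below. ATF4 is a stress factor that induces Gadd45a and Eif4ebp1. Nupr1, a stress-response transcription regulator, read 8.04, 7.82 and 7.84 in TFEB KO muscle, against 7.51, 7.43 and 7.29 in WT muscle (0.49, adjusted p = 0.061). Ddit3 of the same list, named after its values were seen, lay the other way. It read 8.08, 7.94 and 7.86 in TFEB KO muscle, against 8.40, 8.19 and 8.49 in WT muscle (-0.40, limma, adjusted p = 0.121). Growth arrest and p53-linked genes, 16 of 18 measured, had a median of 0.07, with the AKT repressor Phlda3 at 0.44 (adjusted p = 0.162). Ccnd1, the cyclin D1 of cell cycle entry, named after its values were seen, read 8.16, 6.95 and 6.73 in TFEB KO muscle, against 7.98, 8.05 and 8.06 in WT muscle, so that TFEB KO 1 lay with the WT arrays (-0.75, adjusted p = 0.277, and 0.0078 without TFEB KO 1).

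**Figure D4:**
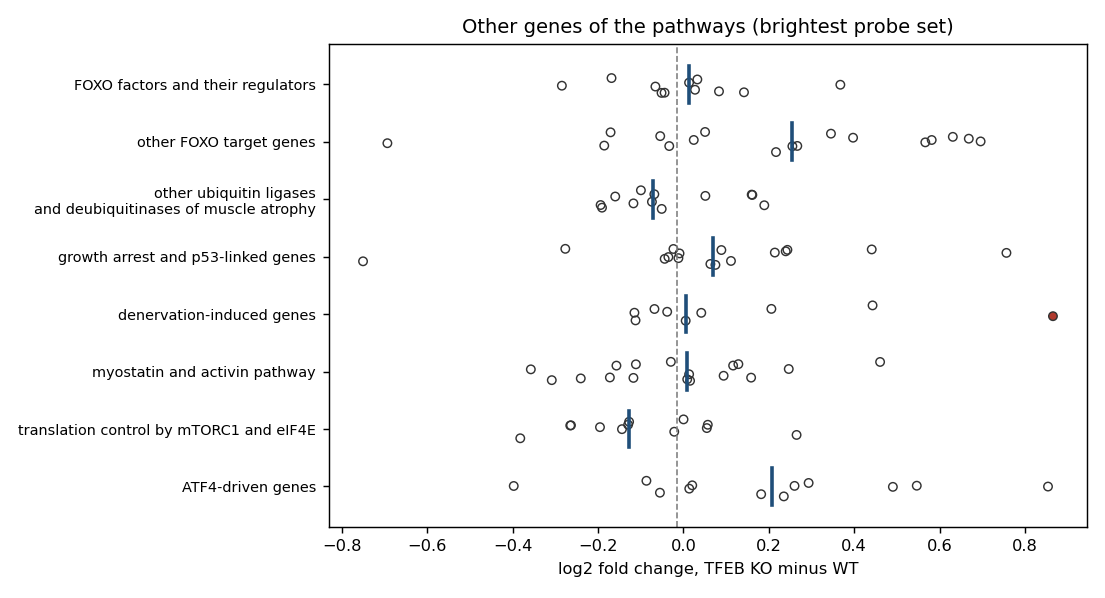
Log2 fold change (TFEB KO minus WT) of each measured gene of the 8 pathway lists on its brightest probe set. Points are genes, the filled red point is the called gene Myog, blue bars are list medians and the dashed line is the median of all genes, -0.01. The medians lie between -0.13 and 0.26.

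Genes most like a member over the 6 arrays were found by the root-mean-square difference of log2 values. Each probe set first lost its own mean, and 12392 other genes were compared. Since these same arrays made the choice, a like fold change and a like place of TFEB KO 1 follow from it. Nearest to Cdkn1a were Cebpd (0.190), S100a8 (0.237) and Atf3 (0.270), a transcription factor of inflammation, a neutrophil calcium-binding protein and a stress transcription factor. Their log2 fold changes were 1.37, 1.29 and 1.14, with TFEB KO 1 the lowest KO array for each, and none passed the test (limma, adjusted p = 0.063, 0.079 and 0.0999). The 7 neutrophil markers, S100a8 among them, had 0 called and summed levels of 223 to 312 in TFEB KO muscle, against 177 to 227 in WT muscle, and all 7 lay below the median brightness. Nearest to Gadd45a were Riok2 (0.081), Ryr3 (0.083) and Hspb11 (0.085), of which Ryr3, a calcium release channel, and Hspb11, a ciliary transport protein, rose, with log2 fold changes of 0.72 and 0.66 (adjusted p = 0.041 and 0.031). Nearest to Foxo1 were Krr1 (0.025), Thumpd3 (0.029) and Srp9 (0.030). For Fbxo32, taken up after its values were seen, they were Ccn1 (0.259), Fibin (0.293) and Lmod2 (0.307), each lower in TFEB KO 1 than in the other KO arrays.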

How the data were processed

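Expression was measured in muscle of 3 TFEB KO and 3 WT mice, 1 Affymetrix array each, labelled biological replicates. The authors deposited log2 values per probe set, made with RMA through affy per the submitters' processing notes. The sources used here do not state versions, settings or the test used on the arrays. Of 22690 probe sets, 64 controls were left out and 22626 tested. The platform annotation gave 20380 of them 1 gene, 691 several and 1555 none, for 12393 genes. By Entrez ID 20351 matched RefSeq, which changed 0 symbols.

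Groups were compared with limma 3.58.1 (lmFit, eBayes, two-sided, Benjamini-Hochberg over all probe sets, threshold 0.05) in R 4.3.3, and single probe sets also by exact permutation. Tables were handled in Python 3.11.15 (NumPy 2.4.6, pandas 2.3.3), and figures drawn with matplotlib 3.10.9. A gene of a list was read on its brightest probe set, the one with the highest mean over the 6 arrays. Summed marker levels are sums of linear values. Arrays give no depth, and their number limits the precision. Simulated arrays of the same comparison were tested (22626 probe sets, 200 of them changed, in 3 runs), and limma recovered 19.4% of log2 changes of 0.5, 90.0% of 1 and 99.5% of 2. Their spread was drawn from limma's estimate over all probe sets. The KO ranges of Cdkn1a and Fbxo32 lay at percentiles 99.5 to 99.9 of all probe sets, so these shares need not hold for them.

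The members and lists were chosen with earlier results of these data known. Named genes are the members, Tfeb, up to 3 called genes of each pathway list or else the 1 with the smallest p, and the 3 genes most like each of the 3 members with the smallest p. Sesn1, Sesn3, Sod2, Pdk4, Ddit3, Ccnd1, Ccn1, Fibin, Lmod2, Fmod, Tnmd, Comp, Pdgfra, Dcn, Col1a1, Col3a1 and the p53 motif were chosen after values or sequences were seen. Alternatives were a second quantile normalization, scaling to the 75th percentile, a filter on dim probe sets, array weights, trended and robust moderation, controls kept, a block on the replicate number, the methods' t-test, the mean of a gene's probe sets, and leaving out each array. The methods' t-test is named among the study's general statistics and is not stated to be its test on the arrays.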

Additional observations from a re-analysis of the deposited data

How the results depend on the processing

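Of 227 alternative values of single probe sets and genes, 216 kept their direction and side of the threshold, 10 came under 0.05 and 1 changed sign. Of the 10, 2 were unadjusted p of the methods' t-test, for Foxo1 1416983_s_at and Gadd45a. Adjusted, the same t-test gave 0.219 and 0.251. The change of sign was in Foxo1 1416981_at, at -0.0091 without WT 1, with a range of -0.0091 to 0.11 over the arrays left out. The 0 members called higher became 1, Gadd45a, with a second quantile normalization, with trended and robust moderation and with array weights, and 2 by the methods' t-test unadjusted. Leaving out 1 array gave 0 to 5, with 5 without TFEB KO 1. The dim filter kept 12 of the 15 probe sets.

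Pathway genes called higher, 1 in the report, were 3 with the dim filter, 2 with trended and robust moderation, 3 with array weights, 8 by the methods' t-test unadjusted and 0 by it adjusted, and 0 to 4 over the arrays left out. Pathway genes called lower, 0 in the report, were 1 with the second quantile normalization, the 75th percentile scaling, the replicate block, the dim filter, array weights, trended and robust moderation, and the mean of a gene's probe sets, Irs2 in each of these, 8 by the methods' t-test unadjusted, and 0 to 1 over the arrays left out. Of all probe sets, 170 were called higher, against 1338 by the methods' t-test unadjusted, 0 by it adjusted and 17 to 235 over the arrays left out. The 191 called lower became 296 with array weights, 124 with the replicate block, 1944 by the methods' t-test unadjusted, 1 by it adjusted and 4 to 203 over the arrays left out. The cause of these shifts was not tested.

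The labels do not say whether the replicate numbers pair the mice. Deviations of same-numbered arrays correlated at 0.088, 0.048 and 0.265, and 2 of the 3 numbers correlated best with their own. These values do not settle whether the mice were paired. With the replicate block 0 members were called, Gadd45a at an adjusted p of 0.052. With 3 arrays a group, small changes are often missed, as the simulated data showed, and 3 of the 15 probe sets were dim.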
